A study of Mus musculus with 4 samples.

Results

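Terminal nucleotidyltransferases are enzymes that add nucleotides to the 3′ end of a finished RNA without copying a template. The 10 genes described here were chosen by symbol from the 55487 gene IDs of the deposited expression table: Tut1, Tut4, Tut7, Tent2, Tent4a, Tent4b, Mtpap, Papola and Papolg, together with Usb1, the nuclease that works on the same RNA end as Tut1. All 10 symbols were found once. The values are in TPM, a transcript level that is corrected for length and scaled so that each library sums to the same total.

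The libraries came from primary neural stem cells, which give rise to the neurons and glia of the cortex, grown from embryonic mouse neocortex as floating spheres with bFGF and EGF. There were 4 groups with 1 library each, all treated with lipid nanoparticles (LNP), for 3 days where these carried Cre. The control was a Tut1f/f culture that received empty LNP. The library labelled Tut1 KO was a Tut1f/f culture that received Cre-LNP, nanoparticles carrying mRNA for the recombinase Cre, which deletes DNA between loxP sites. The Trp53 KO library was a p53f/f culture with Cre-LNP, and the double KO library a Tut1f/f;p53f/f culture with Cre-LNP. The control therefore differed from the other libraries in treatment as well as in genotype, and it carried floxed Tut1 whereas the Trp53 KO culture did not. With no replicate, no p-value or error could be given, and every difference compares 1 library with 1 other. In bulk RNA, fewer cells of a type and less RNA per cell cannot be told apart.

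U6 is the small nuclear RNA at the catalytic core of the spliceosome, and it is transcribed by RNA polymerase III, which stops in a run of U. TUT1 lengthens this run by adding uridines, and USB1 trims it and leaves a cyclic phosphate at the last nucleotide. The other enzymes act elsewhere. TUT4 and TUT7 put uridines on microRNA precursors and on mRNAs whose poly(A) tail has become short. TENT2, TENT4A and TENT4B add poly(A) or mixed tails outside the canonical pathway, MTPAP polyadenylates mitochondrial transcripts, and PAPOLA and PAPOLG are the canonical nuclear poly(A) polymerases.

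Tut1 (ENSMUSG00000071645) lies on chromosome 19 at chr19:8953847-8966210, plus strand, in GRCm38 and has 9 exons in its longest annotated transcript of 2753 nt. The loxP sites of the Tut1f allele flank exon 2, at chr19:8955387-8955577. Exon 2 is 191 nt long, is coding throughout and makes up 6.94% of the transcript. In the following run, exon 2 is in capitals and the 15 bases on each side belong to exons 1 and 3.
Tut1 exon 2: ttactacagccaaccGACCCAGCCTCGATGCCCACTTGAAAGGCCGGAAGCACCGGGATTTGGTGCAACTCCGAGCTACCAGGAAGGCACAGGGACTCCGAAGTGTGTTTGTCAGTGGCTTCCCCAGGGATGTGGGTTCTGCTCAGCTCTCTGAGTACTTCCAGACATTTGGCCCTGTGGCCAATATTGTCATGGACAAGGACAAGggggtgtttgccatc
The length of exon 2 leaves a remainder of 2 when divided by 3, so joining exon 1 to exon 3 shifts the reading frame. The full reading frame encodes 869 residues. The joined frame meets a stop after 81 residues, of which the first 27 are encoded wholly by exon 1. The joined run is given from the last 15 bases of exon 1 to that stop, which is in capitals.
Tut1 exon 1 joined to exon 3: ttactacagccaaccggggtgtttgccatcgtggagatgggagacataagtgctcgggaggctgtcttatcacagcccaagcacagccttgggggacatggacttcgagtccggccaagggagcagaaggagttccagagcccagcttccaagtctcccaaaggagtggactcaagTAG
The other 8 exons of Tut1 remain in such a transcript and still contribute to a gene-level TPM. By length alone, the loss of exon 2 from every transcript would move the logarithm of the counted length by -0.10. The gene-level values below therefore do not show whether exon 2 was removed, and the library names follow the labels.

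**Figure D1:**
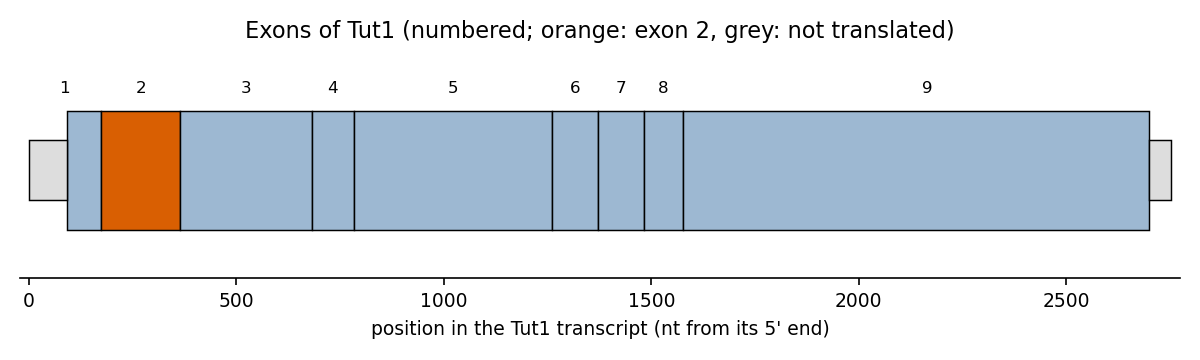
Exons of the longest annotated Tut1 transcript, drawn to scale along the transcript (horizontal axis, nt from the 5′ end). Exon 2 (orange) takes up 191 of 2753 nt, wide boxes are coding and narrow grey boxes are untranslated.

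Tut1 had the widest spread of the 10 genes over these libraries, with a highest TPM 2.45 times its lowest. Tent4b, a far less abundant gene, followed at 2.14 times, and the other 8 stayed between 1.18 and 1.42 times. The control had 12.2 TPM of Tut1, whereas the culture labelled Tut1 KO had 29.8 TPM. The level was 12.5 TPM in Trp53 KO and 13.7 TPM in double KO. The Tut1 KO library stood alone on the high side, and the other 3 libraries lay close together. On the log2(TPM + 1) scale used for all differences below, Tut1 was 1.23 higher in the Tut1 KO library than in the control, which is 2.34-fold on that scale and 2.45-fold in TPM itself. The same label change between the libraries labelled as Trp53 deletions, double KO minus Trp53 KO, gave 0.12. The 2 Tut1 contrasts, which share no library, thus differed by 1.10 for Tut1. The double KO library was 1.07 lower than the Tut1 KO library. Trp53 KO minus control gave 0.04 and double KO minus control gave 0.16. Tut1 was lower in neither library labelled as a Tut1 deletion than in its partner, so a direction drawn from these labels rests on the labels and not on these values. The study assayed the deleted exon separately in such cultures, by qPCR and by long reads, which is not analysed here.

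A gene was counted as different when it reached 10 TPM in at least 1 of the 2 libraries and its difference was 1 or more in either direction. In Tut1 KO minus control, 8 of the 10 genes reached that level and 1, Tut1, was counted, where 4.1% of all 9032 genes compared were. For double KO minus Trp53 KO none of 8 was counted against 3.21% of all genes. In double KO minus Tut1 KO the count was again 1 of 8, Tut1, against 3.9%. The count was 0 of 8 in Trp53 KO minus control, against 3.83%, and 0 of 8 in double KO minus control, against 3.31%. These shares come from 1 library a group and hold no estimate of error. With a pseudocount of 5 in place of 1, Tut1 no longer reached the limit in double KO minus Tut1 KO, at -0.89.

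**Figure D2:**
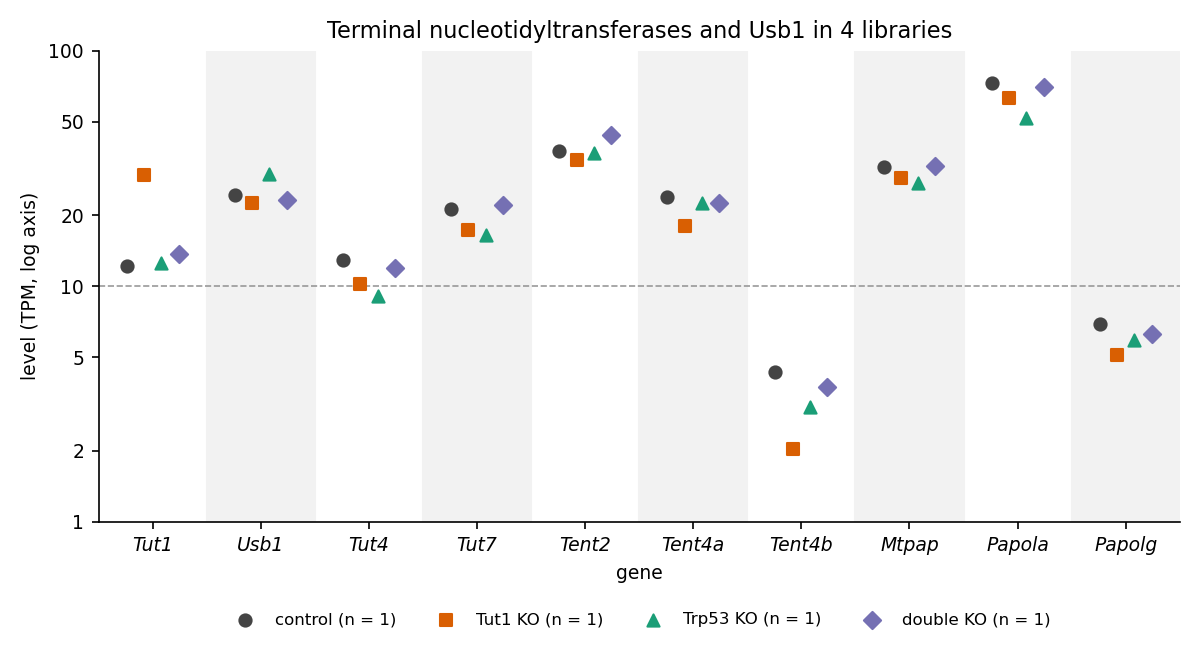
Level of each gene in the 4 libraries (vertical axis, TPM on a log scale; 1 point per library, no replicates; dashed line at 10 TPM). Tut1 stands at 29.8 TPM in the Tut1 KO library and between 12.2 and 13.7 TPM in the others, while Tent4b and Papolg lie under 10 TPM throughout.

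Usb1, the partner of Tut1 at the U6 end, followed another course. Its level was 24.4 TPM in the control, 22.5 TPM in the Tut1 KO library, 29.97 TPM in Trp53 KO and 23.3 TPM in double KO. The Trp53 KO library was highest, and the other 3 lay between 22.5 and 24.4 TPM. Usb1 was 0.29 higher in Trp53 KO than in the control and 0.35 lower in double KO than in Trp53 KO, while Tut1 KO minus control gave -0.11. None of these reached the limit of 1. The ratio of Tut1 to Usb1 in TPM was 0.499 in the control, 1.32 in Tut1 KO, 0.417 in Trp53 KO and 0.588 in double KO. Tut1 thus exceeded Usb1 in the Tut1 KO library and was below it in the other 3. The Usb1 gene is annotated at chr8:95332284-95347507.

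The uridylyltransferases Tut4 and Tut7 had similar profiles, with differences well under 1. Tut4 (chr4:108459426-108559421) was at 12.9 TPM in the control, 10.3 TPM in Tut1 KO, 9.05 TPM in Trp53 KO and 11.9 TPM in double KO. Tut7 (chr13:59771561-59823147) was at 21.2, 17.4, 16.4 and 22.2 TPM in the same order. Both had their lowest level in Trp53 KO, with Tut1 KO next and the other 2 libraries above. In Tut1 KO minus control the difference was -0.30 for Tut4 and -0.27 for Tut7, while the contrast of double KO with Trp53 KO gave 0.36 and 0.41. The sign thus turned between the 2 Tut1 contrasts for both enzymes. The ratio of Tut7 to Tut4 kept between 1.65 and 1.86 in the 4 libraries. LIN28A and LIN28B recruit these enzymes to the let-7 precursor in pluripotent cells. Both of their genes were under 0.1 TPM in every library.

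Among the poly(A)-adding enzymes outside the canonical pathway, Tent2 was the most abundant. Tent2 (chr13:93146282-93192385), also called Gld2 for its role in cytoplasmic poly(A) lengthening, was at 37.4 TPM in the control, 34.5 TPM in Tut1 KO, 36.8 TPM in Trp53 KO and 43.7 TPM in double KO. Its differences were between -0.11 and 0.33 over the 5 contrasts. Tent4a (chr13:69497959-69534617) was at 23.9, 18.0, 22.6 and 22.6 TPM. The Tut1 KO library was the low one for Tent4a, at -0.39 against the control, and the other 3 libraries were within 0.08 of each other. Tent4b (chr8:88199213-88259722), the paralogue of Tent4a that acts with the nuclear exosome, was at 4.33, 2.03, 3.08 and 3.73 TPM. Tent4b was the least abundant of the 10 genes in each library and never reached 10 TPM. Its Tut1 KO minus control difference of -0.82 depended on the pseudocount, with -1.06 at 0.1 and -0.41 at 5. Tent4a exceeded Tent4b by 5.51 times in the control and by 8.87 times in Tut1 KO.

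Mtpap, the poly(A) polymerase of mitochondria, varied least. It was at 32.2 TPM in the control, 28.9 TPM in Tut1 KO, 27.4 TPM in Trp53 KO and 32.3 TPM in double KO. Its highest and lowest libraries were 0.23 apart, a distance that was exceeded by 79.9% of the genes that reached 10 TPM. The control and double KO libraries were almost equal, at a difference of 0.00.

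Papola (chr12:105784694-105838944), the main nuclear poly(A) polymerase, was the most abundant of the 10 genes in every library. It was at 72.9 TPM in the control, 63.3 TPM in Tut1 KO, 51.7 TPM in Trp53 KO and 70.1 TPM in double KO. The Trp53 KO library was lowest, at -0.49 against the control and with double KO 0.43 above it. Papolg (chr11:23862646-23895253), its nuclear relative, was at 6.92, 5.11, 5.94 and 6.27 TPM, below 10 TPM throughout. Papola exceeded Papolg by between 8.71 and 12.4 times.

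Ordered by level in the control, the genes ran Papola, Tent2, Mtpap, Usb1, Tent4a, Tut7, Tut4, Tut1, Papolg and Tent4b. No replicate spread exists for this order, so the overlap of ranges over the 4 libraries is given instead. Papola lay above Tent2 in every library, and the lowest Papola value exceeded the highest Tent2 value. The same held for Tent2 over Mtpap, Tut7 over Tut4, Tut1 over Papolg and Papolg over Tent4b. Mtpap and Usb1, Usb1 and Tent4a, Tent4a and Tut7, and Tut4 and Tut1 overlapped in range. Tut1 moved in this order from place 8 in the control to place 3 in the Tut1 KO library, and it was at place 7 in the other 2 libraries. The 10 genes summed to 248 TPM in the control, 232 TPM in Tut1 KO, 216 TPM in Trp53 KO and 250 TPM in double KO. Tut1 made up 4.90% of that sum in the control and 12.8% in Tut1 KO.

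Over the 4 libraries, the distance from lowest to highest was 1.23 for Tut1, larger than in 93.5% of the 9314 genes that reached 10 TPM in any library. For the other 9 genes the median distance was 0.40, and the median over all 9314 genes was 0.39. Without the Tut1 KO library the distance for Tut1 was 0.16. The other 9 genes thus varied about as much as an average expressed gene.

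The 2 Tut1 contrasts often differed in direction, both for these genes and for all genes compared. All 9 genes other than Tut1 were lower in Tut1 KO than in the control, with a median of -0.27 and a range from -0.82 to -0.11. Of all genes compared, 60.7% were lower and the median was -0.09. With the Trp53 deletion label on both sides, in double KO minus Trp53 KO, 7 of the 9 were higher, with a median of 0.23, whereas 58.7% of all genes were higher with a median of 0.05. Usb1 and Tent4a were the 2 genes not higher there. The sign turned between the 2 contrasts for 7 of the 10 genes, as it did for 54.2% of the 8694 genes compared in both. The 7 include Tent4b and Papolg, which never reached 10 TPM and so were not among those 8694. After a correction for GC content and length the sign turned for 2 of the 10, Tut7 and Tent4b, and for 45.6% of all genes. In Trp53 KO minus control 8 of the 9 were lower, with Usb1 as the exception, against 59.9% of all genes. In double KO minus control 6 were lower with a median of -0.06, against 50.2% of all genes and a median of -0.001. These contrasts share libraries, so a low value in 1 library appears in several of them.

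**Figure D3:**
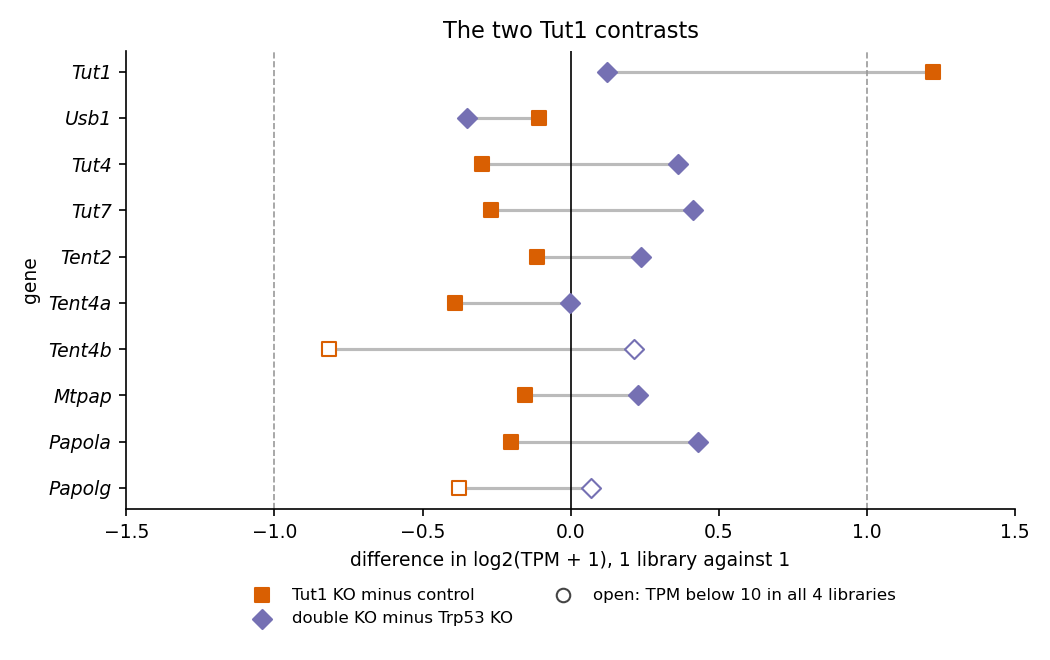
Difference in log2(TPM + 1) for each gene in Tut1 KO minus control (squares) and double KO minus Trp53 KO (diamonds), 1 library against 1; dashed lines mark a difference of 1. Tut1 alone passes a line, at 1.23, and 7 of the 10 genes lie on opposite sides of 0 in the 2 contrasts, as do 54.2% of all genes compared in both.

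Over protein-coding genes, the Tut1 KO minus control difference varied with the base composition and length of transcripts, which were not separated. Whether this accounts for the direction in the 9 genes other than Tut1 was not tested. Across 8469 protein-coding genes, the Tut1 KO minus control difference had a Spearman correlation of 0.42 with the GC content of the longest annotated transcript, and one of -0.36 with its length, a description in which all genes share the same 2 libraries. The median difference was -0.34 in the decile of genes with the lowest GC content and 0.11 in the decile with the highest. Tut4, Tut7, Tent2, Tent4b, Mtpap, Papola and Papolg have transcripts of 39.8% to 45.8% GC, in the 3 lowest deciles, where the medians were -0.34, -0.30 and -0.23. After a fit on GC content and length was removed, 5 of the 9 genes were lower and 4 higher, with a median of -0.01. Tut4, Tent2, Mtpap and Papola then had values of 0.05, 0.21, 0.07 and 0.08. Usb1, Tut7 and Papolg stayed below 0, at -0.16, -0.02 and -0.01. Tent4a (55.2% GC) and Tent4b kept -0.34 and -0.60.

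Tut1 stood apart from that trend. Its transcript has 55.5% GC, in a decile of genes with a median difference of 0.02, where Tut1 was above 99.6% of genes. The fit left its difference at 1.20.

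**Figure D4:**
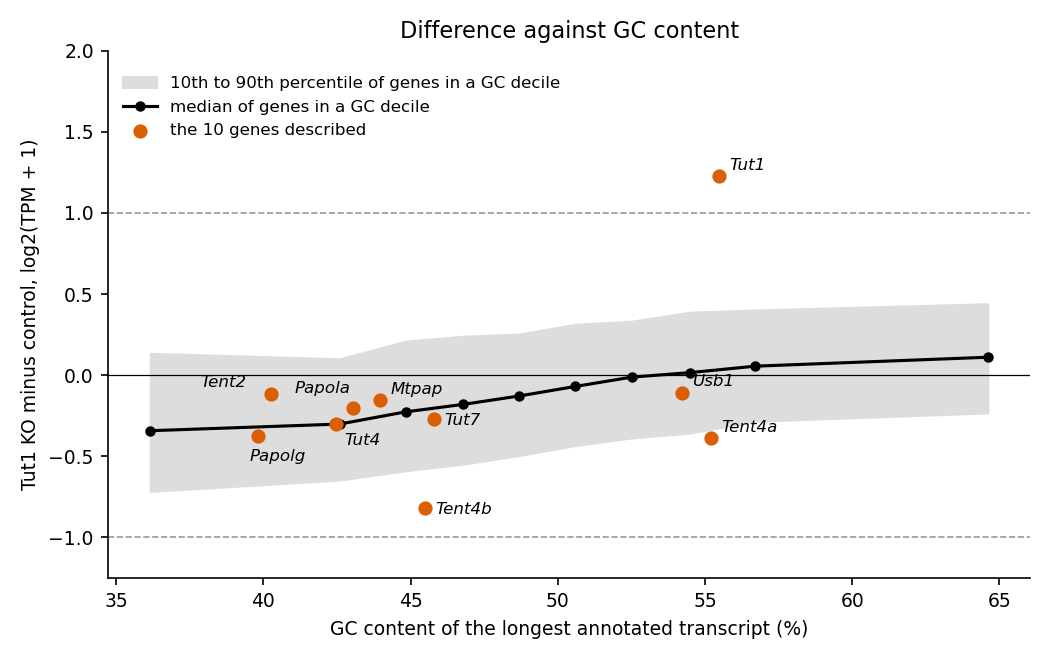
Tut1 KO minus control difference (vertical axis, log2(TPM + 1)) against transcript GC content (horizontal axis, %). The line joins the medians of the GC deciles of 8469 protein-coding genes and the band spans their 10th to 90th percentiles; Tut1 lies far above the band at 1.23, Tent4a and Tent4b lie below it at -0.39 and -0.82, and the other genes lie within it.

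The libraries also differed in sex-linked transcripts. Xist, the RNA of the inactive X chromosome, was at 188 TPM in Tut1 KO and 204 TPM in Trp53 KO and at about 0.01 TPM in the control and double KO. The Y-linked gene Ddx3y was at 24.4 TPM in the control and 25.7 TPM in double KO and was listed at 0 in the other 2. Each Tut1 contrast thus crosses this split, in opposite directions, and the part of the split in the 7 turned signs cannot be told apart from genotype. Within the pair with Xist, Tut1 was at 29.8 TPM in Tut1 KO and 12.5 TPM in Trp53 KO. Within the pair with Ddx3y it was at 13.7 TPM in double KO and 12.2 TPM in the control. Trp53 itself, the other targeted gene, was at 120 TPM in the control, 100.4 TPM in Tut1 KO, 39.7 TPM in Trp53 KO and 41.9 TPM in double KO. Gene-level Trp53 was thus lower in the libraries labelled as its deletion but not absent. The neural stem cell markers were all 10 at 1 TPM or more, and their sum was between 10456 and 12294 TPM. Most of that sum came from Fabp7, at 7902 to 9441 TPM. Sox1 and Prom1 were far lower, at 8.05 to 11.6 and 5.69 to 10.6 TPM. The 5 microglial, 3 endothelial and 3 fibroblast markers all stayed under 1 TPM. Of the neuronal, astrocyte and oligodendrocyte-lineage markers, 4 of 6, 2 of 4 and 5 of 5 reached 1 TPM. The neuronal markers summed to between 160 and 229 TPM, most of it from Map2, which was at 141 to 208 TPM and lowest in Tut1 KO. The oligodendrocyte-lineage markers summed to between 1508 and 1694 TPM, led by Olig1 at 895 to 1029 TPM and Olig2 at 530 to 619 TPM. The part of these markers in the family values was not tested.

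The genes around Tut1 on chromosome 19 did not share its level in the Tut1 KO library. Mta2, a subunit of the NuRD chromatin complex that ends 1543 nt before Tut1, was at 96.9, 96.0, 94.8 and 94.6 TPM in the control and the Tut1 KO, Trp53 KO and double KO libraries. Its range over the 4 libraries was 0.03. Eef1g, a translation elongation factor subunit that begins 830 nt after Tut1 on the same strand, was at 951, 1082, 1005 and 977 TPM, and its Tut1 KO minus control difference was 0.19. Eml3, a microtubule-binding protein gene, was at 6.86, 8.66, 9.02 and 9.85 TPM. Rom1, Ahnak and Scgb1a1 stayed under 1 TPM in all 4 libraries. No annotated gene overlaps an exon of Tut1.

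**Figure D5:**
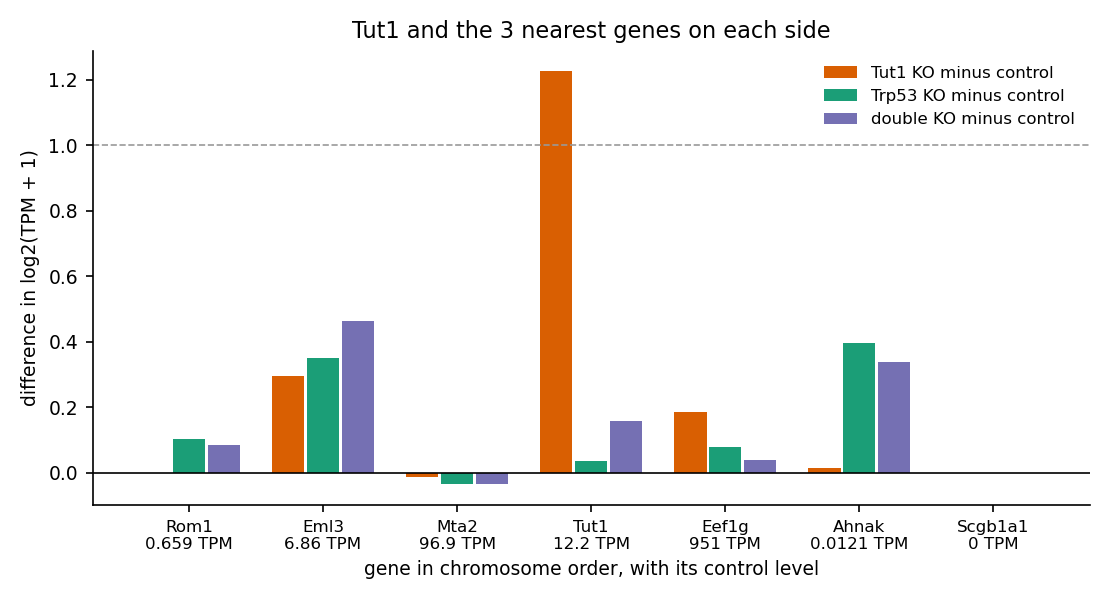
Difference from the control in log2(TPM + 1) for Tut1 and the 3 nearest named protein-coding genes on each side, in chromosome order; bars are the Tut1 KO, Trp53 KO and double KO libraries, 1 each, and the control level stands under each name. Tut1 in the Tut1 KO library is the one bar above the dashed line at 1, and both genes that flank it, Mta2 and Eef1g, stay within 0.19.

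Some of the 10 genes have annotated exons that overlap those of another gene. Tut7 shares exonic sequence on the same strand with Gm49354 and Mtpap with AC138768.3, and both of these genes were listed at 0 in all 4 libraries. On the opposite strand, Tent4a overlaps Nsun2, an RNA methyltransferase gene that was at 90.7 to 115 TPM and thus far above Tent4a. The labels name a stranded kit, but the platform is uncertain and the strand setting of the quantification is not given in the sources used here.

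A profile like that of Tut1 over the 4 libraries was looked for among the other genes. Among the 9314 genes at 10 TPM or more in some library, 31 (0.333%) were at least 1 higher in the Tut1 KO library than in each of the other 3 libraries, a criterion shaped on the profile of Tut1. A gene can meet the 10 TPM minimum through the Tut1 KO library alone. There were 66 genes at least 1 lower in that library than in each of the others. The genes nearest to Tut1 in profile, by the distance between mean-centred log2(TPM + 1) values over the 4 libraries, were Xndc1, Zfp688, Tmem191c, Clp1 and Abcg4, taken from 1601 genes that varied at least 0.5 times as much. Xndc1 was at 19.2, 48.4, 21.6 and 21.2 TPM in that order of libraries, but its exons overlap those of Trpc2 and Xntrpc on the same strand. Zfp688, a zinc finger gene, was at 6.50, 15.6, 7.88 and 6.93 TPM. Clp1, an RNA kinase of the cleavage and polyadenylation machinery, was at 4.70, 12.1, 3.55 and 4.96 TPM. All 5 were highest in the Tut1 KO library, which is what the choice by profile asks for. Zfp688, Tmem191c, Clp1 and Abcg4 reached 10 TPM in the Tut1 KO library alone, so they were eligible only through the library where they are high.

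Genes nearest to Usb1 in profile were Prcp, Pgam1, Fgf11, Dop1b and Cnpy4, from 6976 genes. Each of them was highest in the Trp53 KO library. Pgam1, a glycolytic enzyme, was at 993 TPM in the control and 1194 TPM in Trp53 KO, with 942 and 973 TPM in Tut1 KO and double KO. Prcp, a lysosomal peptidase gene, was at 38.3 and 48.6 TPM in control and Trp53 KO and at 35.7 and 36.7 TPM in the other 2.

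Partners of the U6 RNA stayed under the limit of 1, with 1 exception. The list of 17 genes holds the LSM2 to LSM8 ring that binds the U6 tail, the La protein Ssb, the recycling factor Sart3, the capping enzyme Mepce, the methyltransferase Mettl16 and proteins of the U4/U6 particle. In Tut1 KO minus control none of the 16 compared was counted, where 4.1% of all genes were. Of the 16, 11 were higher and 5 lower with a median of 0.06, against 39.3% higher and a median of -0.09 over all genes. Between double KO and Trp53 KO 1 of 17 was counted, against 3.21% of all genes. Of the 17, 16 were on the higher side with a median of 0.22, against 58.7% higher and a median of 0.05. The counted gene was Prpf3, a U4/U6 protein, at 38.9, 54.4, 30.4 and 64.5 TPM in that order of libraries. Prpf3 was higher in both libraries labelled as Tut1 deletions, by 0.47 and 1.06. Lsm7 had the highest Tut1 KO minus control value of this list, 0.78, from 164 to 282 TPM, and it was 0.45 higher in double KO than in Trp53 KO. Prpf31 gave the lowest value in that contrast, -0.29, and Lsm5 the lowest in double KO minus Trp53 KO, also -0.29. By the mean over the 4 libraries, Ssb was the most abundant of the list, at 279 to 367 TPM, and Mettl16 the least, at 6.59 to 10.9 TPM.

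Of the 6 other genes of the same enzyme superfamily that were listed, Trnt1 alone reached 10 TPM. Tent5a was at 4.05 to 5.63 TPM, overlapping the ranges of Tent4b and Papolg, and Tent5b, Tent5c, Tent5d and Papolb were under 0.6 TPM in every library. Trnt1, which adds the CCA end to tRNAs, was at 49.6 TPM in the control, 17.1 TPM in Tut1 KO, 19.7 TPM in Trp53 KO and 26.3 TPM in double KO. All 3 Cre-LNP libraries were below the control, by 1.48, 1.29 and 0.89 on the log2 scale, and double KO was 0.40 above Trp53 KO. The exons of Trnt1 overlap those of Crbn on the opposite strand.

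Enzymes that remove tails stayed within the limit. The list of 16 holds the uridine-directed nuclease Dis3l2, exosome nucleases and the deadenylases. Of the 14 at 10 TPM or more, none was counted in any of the 5 contrasts. In Tut1 KO minus control 11 were lower and 3 higher with a median of -0.12, against 60.7% lower and a median of -0.09 over all genes. The second Tut1 contrast had 12 higher with a median of 0.15, against 58.7% higher and a median of 0.05. Cnot7, a deadenylase of the CCR4-NOT complex, gave the lowest value of the first contrast, -0.66, from 62.6 to 39.3 TPM. Dis3l2 gave the highest of the 14, 0.23, and was at 17.1 to 21.3 TPM. Exosc10 and Pan2 gave the highest and lowest values of the second contrast, 0.31 and -0.34. Cnot6 was the most abundant of these genes, at 79.8 to 110 TPM, and Pnldc1, which was not among the 14, the least of all 16, at 0.616 to 1.56 TPM with a Tut1 KO minus control difference of 0.66.

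The cleavage and polyadenylation machinery that works with Papola held 1 counted gene. Of its 20 genes, all were compared in Tut1 KO minus control, where 1 was counted, against 4.1% of all genes. Of the 20, 14 were lower and 6 higher with a median of -0.25, against 60.7% lower and a median of -0.09 over all genes. Clp1 was the gene counted, 1.20 higher in Tut1 KO than in the control and 1.14 lower in double KO than in Tut1 KO. Clp1 reached 10 TPM in the Tut1 KO library alone, so it was compared only through the library where it is high. Cstf2, an RNA-binding subunit of the cleavage stimulation factor, gave the lowest value, -0.92, from 31.5 to 16.2 TPM. None of 19 was counted in double KO minus Trp53 KO. Pcf11 gave the highest value there, 0.66, and Cpsf4 the lowest, -0.97, with 37.4 TPM in Trp53 KO and 18.6 TPM in double KO. Pabpc1, the cytoplasmic poly(A)-binding protein, was the most abundant at 553 to 662 TPM.

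Cofactors of the non-canonical enzymes had no counted gene among the 6 of 10 at 10 TPM or more. In Tut1 KO minus control 5 of the 6 were lower with a median of -0.27, where 60.7% of all genes were lower with a median of -0.09. The second Tut1 contrast had 5 of 6 higher with a median of 0.19, where 58.7% of all genes were higher with a median of 0.05. Lrpprc and Slirp form the complex that aids MTPAP in mitochondria. Lrpprc was at 32.8 TPM in the control and 23.2 TPM in Tut1 KO, a difference of -0.48, whereas Slirp was at 29.7 and 41.6 TPM, a difference of 0.47. The 2 partners thus had opposite signs in that contrast. The contrast of double KO with Trp53 KO gave -0.24 and 0.18. Zcchc7, a zinc-knuckle partner of Tent4b, had the highest value of that contrast among the 6, 0.36. Samd4, named after its values were seen, stayed under 10 TPM at 1.77, 0.425, 1.20 and 7.16 TPM in control, Tut1 KO, Trp53 KO and then double KO. Its difference was -0.96 in the first Tut1 contrast and 1.89 in the second. Mtrex, the helicase of the nuclear exosome, was the most abundant by the mean over libraries, at 52.1 to 69.5 TPM, although Samd4b exceeded it in Tut1 KO and in Trp53 KO.

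Over the 5 lists together, 2 of 57 genes were counted in Tut1 KO minus control (Clp1 higher, compared only through its Tut1 KO level, and Trnt1 lower) and 1 of 57 in double KO minus Trp53 KO (Prpf3). Trp53 KO minus control had 1 of 56 (Trnt1), double KO minus Tut1 KO 1 of 58 (Clp1) and double KO minus control 0 of 57. Over all genes compared, the shares were 4.1%, 3.21%, 3.83%, 3.9% and 3.31% in the same order, so counts this small are near the background.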

How the data were processed

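RNA of 4 mouse neural stem cell libraries, 1 per group, was quantified by the authors. The deposited values are gene-level TPM for 55487 gene IDs, and the authors' processing notes name Trimmomatic, HISAT2, StringTie and the build mm10 without versions. The labels name a kit for short-read stranded mRNA libraries whereas the design text speaks of long reads, so the platform is uncertain. Whether replicates were pooled is not given in the sources used here. TPM keeps no depth, values above 0 reach down to 1e-06 and no reads could be recovered, so depth is unknown and no counting interval was computed.

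Groups followed the labels. Differences were taken on log2(TPM + 1) with Python 3.11.15, numpy 2.4.6 and pandas 2.3.3. A gene was compared when it reached 10 TPM in at least 1 of the 2 libraries and counted at a difference of 1 or more. No test was made, since each group has 1 library. Gene positions, exons, GC content and length came from GENCODE M21 (GRCm38, the same assembly as mm10), which matched 99.5% of the IDs, and sequences were read from its transcripts. The script was tested on simulated data.

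The genes, the 5 lists and the tests were chosen with earlier results of these data known. The text names the 10 genes, Trp53, Xist and Ddx3y, the 3 nearest protein-coding genes on each side of Tut1, and the 5 nearest genes in profile to Tut1 and to Usb1. From each list it names the counted genes, those with the highest and lowest value in each Tut1 contrast among genes that reached 10 TPM in some library, and the most and least abundant by mean TPM. Predicted genes, clones, pseudogenes and mitochondrially encoded genes were not named by that rule. Cell type markers, genes that overlap the 10 genes, LIN28 and Tent5 genes and Samd4 were named outside it, with their values seen.

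Alternatives were pseudocounts of 0.1 and 5, a median difference set to 0, quantile normalization, removal of mitochondrial and ribosomal protein genes, a correction for GC content and length, a minimum of 1 TPM or none, and a limit of 1.5-fold. Leaving out the Tut1 KO library was added after seeing the data.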

Additional observations from a re-analysis of the deposited data

Results flagged for a closer look

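For 7 of the 10 genes, Tut1 KO minus control and double KO minus Trp53 KO had opposite signs. Each contrast was 1 library against 1, and the difference was not tested. Opposite signs were also found for 54.2% of the 8694 genes compared in both contrasts. The split in Xist and Ddx3y runs in opposite directions in the 2 contrasts, and Cre-LNP against empty LNP enters the first alone. The part of either cannot be told apart from that of genotype. The first contrast (Tut1 KO against control) less the second (double KO against Trp53 KO) was -0.66 for Tut4, -0.68 for Tut7, -0.35 for Tent2 and -1.03 for Tent4b. It was -0.38 for Mtpap, -0.63 for Papola and -0.44 for Papolg. Tent4b and Papolg lie under 10 TPM in all 4 libraries, and the Tent4b value was -0.52 with a pseudocount of 5. With the correction for GC content and length, 2 of the 10 genes (Tut7 and Tent4b) still had opposite signs, against 45.6% of all genes, and the values were -0.20 for Tut4, -0.35 for Tut7, 0.09 for Tent2, -0.72 for Tent4b, -0.06 for Mtpap, -0.24 for Papola and 0.05 for Papolg.

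Trnt1, the tRNA CCA-adding enzyme, also had opposite signs, with -1.48 against the control and 0.40 between the libraries labelled as Trp53 deletions, a difference of -1.88 that was not tested. The same split in sex-linked transcripts and the same treatment difference enter this value.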

How the results depend on the processing

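No paired analysis was possible because each group has 1 library. A value with no replicate was called moved when it shifted by more than the median absolute deviation of all genes in that contrast. By that rule 31 single-gene values moved and 393 did not. In Tut1 KO minus control, the correction for GC content and length moved Tut4, Tut7, Tent2, Papola and Papolg. Over the 9 alternatives, Tut1 was the 1 gene counted in Tut1 KO minus control, at 1.02 to 1.35, and 0 genes were counted in the contrasts of double KO with Trp53 KO, of Trp53 KO with the control and of double KO with the control. In double KO minus Tut1 KO the count was 1 except with a pseudocount of 5, where it was 0, since a larger pseudocount shrinks differences of genes near 10 TPM. The difference between the Tut1 contrasts for Tut1 was between 0.92 and 1.27, and the median range of the 10 genes between 0.30 and 0.43. Of 300 recomputed differences of single genes, 17 changed sign from the main setting, none of them larger than 0.30 in size there. With a limit of 1.5-fold, 12.1% of all genes were counted in the first Tut1 contrast and 7.89% in the second, and with no minimum 1.25% and 1.02%. Depth is unknown and no replicate exists, so the error of these values cannot be stated.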
